A study of Mus musculus with 16 samples.

Results

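The genes of the translation initiation factors were followed in mouse bone marrow-derived macrophages (BMMs) in which Notch signaling was blocked with a gamma-secretase inhibitor (GSI). A row of the count table was a member when its symbol started with Eif and a digit, leaving out the Eif2ak kinases and symbols starting with Gm, which gave 59 of 47069 genes. They comprised 5 genes named for eIF1, 6 for eIF2, 5 for eIF2B, 14 for eIF3, 13 for eIF4, 3 for the eIF4E-binding proteins (4E-BPs), 4 for eIF5 and 1 for eIF6. The other 8 were 7 processed pseudogenes and Eif2c5, whose symbol is an old name of the Argonaute family. The rule read names only and used no measured value.

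To measure the effect of GSI, RNA-seq was performed on BMMs from C57BL/6 mice aged 8 to 10 weeks, grown from bone marrow cells in L929-conditioned medium and harvested on day 7. All BMMs were primed overnight with IFNγ (10 ng/mL) and activated for 1 hr by LPS (100 ng/mL) together with immune complexes of ovalbumin and rabbit IgG against it (LPS/ICs). The groups compared were one with the GSI DAPT (25 µM) and one with its vehicle DMSO (0.01%), so both carried the priming and the activation, and resting BMMs were not analysed here. The study's methods place DAPT or DMSO overnight before activation, while some of its figure legends give a shorter pre-treatment. Exposure to GSI was therefore longer than the 1 hr of activation. Each group had 2 replicates, and the 4 columns of each replicate, taken as sequencing runs, were summed to 1 library.

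The 4 libraries held 42694655 and 56932059 counts with DMSO and 48483661 and 49511733 with GSI. Values are given as CPM, counts scaled to a common library size with TMM adjustment. A limit of 3 counts corresponded to between 0.0529 and 0.0697 CPM, which covers counting error only. The labels do not say whether replicates came from separate mice or cultures, so p-values measure only the spread between these libraries, which may be technical. Macrophage markers were abundant, with a summed level of 10428 and 10721 CPM with DMSO and 8401 and 9184 CPM with GSI over 8 listed rows. The 23 markers of neutrophils, B cells, T cells, dendritic cells, erythroid cells and fibroblasts summed to between 1.02 and 1.78 CPM in each library, and 7 of them were at 0 in all 4.

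Translation starts when eIF2, bound to GTP, carries the initiator tRNA to the small ribosomal subunit, which eIF1, eIF1A, eIF3 and eIF5 prepare for scanning. The eIF4F complex, made of the cap-binding eIF4E, the scaffold eIF4G and the helicase eIF4A, brings in the mRNA, and 4E-BPs block it by occupying eIF4E. After the start codon is found, eIF5 stimulates GTP hydrolysis by eIF2, eIF5B joins the large subunit, and eIF2B reloads eIF2 with GTP. Activated macrophages are known to adjust both eIF2B-dependent loading and the 4E-BP brake while they synthesize cytokines.

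The promoter stretches of 4 members are shown because these genes carried clear contrasts with GSI described below. Eif2s2 rose while the other eIF2 subunit genes did not pass, and Eif4ebp2 fell while Eif4ebp1 rose. Eif5a and Eif5a2, which both encode eIF5A, went in opposite directions. Eif1ad and Eif4g3 were also considered, but their windows held too few bases outside annotated exons, and Eif4ebp1 had no window. The stretches are RefSeq sequence of build GRCm38.p6 before an annotated RefSeq start, 5′ to 3′ on the gene's strand, trimmed to bases outside annotated exons. Capitals mark matches on either strand to CACGTG (the E-box), GGGCGG (the GC box) or CCGGAAG (an ETS-family element). Eif5a has 6 windows in that table, and one was picked because it holds CACGTG. Its stretch lies before an alternative start inside the gene, 572 bases downstream of the outermost annotated start.
Eif2s2 (chr2:154892936-154893156, minus strand): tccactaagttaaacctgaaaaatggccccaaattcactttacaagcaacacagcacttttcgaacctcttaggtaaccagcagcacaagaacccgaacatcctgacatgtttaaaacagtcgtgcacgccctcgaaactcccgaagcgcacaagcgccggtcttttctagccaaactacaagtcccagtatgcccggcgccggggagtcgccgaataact
Eif4ebp2 (chr10:61452670-61452919, minus strand): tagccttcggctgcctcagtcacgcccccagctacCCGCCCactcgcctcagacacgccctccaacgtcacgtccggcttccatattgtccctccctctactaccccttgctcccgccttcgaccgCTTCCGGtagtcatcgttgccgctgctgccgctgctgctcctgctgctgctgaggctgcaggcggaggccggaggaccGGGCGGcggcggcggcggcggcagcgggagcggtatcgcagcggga
Eif5a (chr11:69921387-69921636, minus strand): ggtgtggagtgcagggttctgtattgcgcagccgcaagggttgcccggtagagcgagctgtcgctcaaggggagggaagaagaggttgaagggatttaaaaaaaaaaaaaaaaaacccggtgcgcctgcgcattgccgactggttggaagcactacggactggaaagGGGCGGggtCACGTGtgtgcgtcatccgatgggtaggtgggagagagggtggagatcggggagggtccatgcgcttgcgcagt
Eif5a2 (chr3:28781109-28781275, plus strand): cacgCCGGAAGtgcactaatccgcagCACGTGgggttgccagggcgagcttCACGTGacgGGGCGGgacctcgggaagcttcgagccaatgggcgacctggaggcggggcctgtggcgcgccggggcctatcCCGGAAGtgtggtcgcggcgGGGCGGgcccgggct

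The Eif5a2 stretch held CACGTG at 2 places, beginning 142 and 117 bases before the start, and the Eif5a stretch held it once, 74 bases before its alternative start. The Eif4ebp2 stretch held the GC box at 215 and 46 bases and the ETS letters at 124 bases before the start, and none of the 3 was found in the Eif2s2 stretch. Windows from 250 bases before to 50 after the start were given for 39 of the 51 members that are not pseudogenes or Eif2c5. A gene was counted when any of its windows held the letters, with a mean of 1.31 windows per member and 1.22 over all genes. The GC box was found in 31 of 39 members (79.5%) against 38.2% of 27025 genes. These 27025 are all genes with a window, whether or not they were expressed or tested here. The motif shares are thus not matched for expression and use another background than the 13211 tested genes. The ETS letters were found in 15 (38.5%) against 9.93%, and CACGTG in 10 (25.6%) against 8.09%. Members with CACGTG were 1 of 11 that rose, 1 of 6 that fell and 8 of 21 that were not called. GTGGGAA, the letters bound by the Notch partner RBPJ, were found in 6 members (15.4%) against 7.25%, namely Eif2b4, Eif3a, Eif3f, Eif4enif1, Eif5a2 and Eif5b. TGATGNAA, the C/EBP-ATF element, was found in Eif2s3x, 1 of 39 members (2.56%), against 4.51%. All were searched on both strands, no motif contains another, and a match describes letters only.

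When GSI-treated BMMs were compared with the vehicle control, 13 initiation factor genes were higher and 7 were lower at an FDR under 0.05. Those that rose included Eif4ebp1, Eif1ad, Eif2s2, Eif6, Eif3b, Eif3c and Eif5a, and 4 of the 5 eIF2B subunit genes. The genes that fell were Eif4ebp2, Eif4g3, Eif5a2, Eif5b, Eif4e3, Eif4b and Eif2a. Without DMSO replicate 1 the counts were 8 higher and 3 lower, and without GSI replicate 2 they were 11 higher and 4 lower. In bulk RNA, fewer cells of a type and less RNA per cell cannot be told apart. The changes were small: only Eif4ebp1 and Eif1ad passed 1.5-fold in either direction, and the tested members ranged from -0.48 to 0.73 in log2 fold change.

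Of 59 members, 4 had no count in any library (Eif2s3y, Eif4e1b, Eif1-ps3 and Eif2c5), and 52 passed the filter on low counts and entered the quasi-likelihood test of edgeR, adjusted over 13211 genes. The share called in either direction was 38.5% of tested members and 40.8% of all tested genes. Without DMSO replicate 1 these shares were 21.2% and 30.7%, and with GSI replicate 2 left out 28.8% and 35.6%. Higher calls made up 25% against 19.0%, and lower calls 13.5% against 21.9%. Calls of at least 1.5-fold made up 3.85% against 14.1%. The 2 groups did not overlap in CPM for 39 of 52 members (75%) against 70.6% of all tested genes. The median log2 fold change was 0.069 over tested members and 0.015 over all tested genes, and the median size regardless of sign was 0.15 and 0.24. These shares describe the members and were not tested against other genes.

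**Figure D1:**
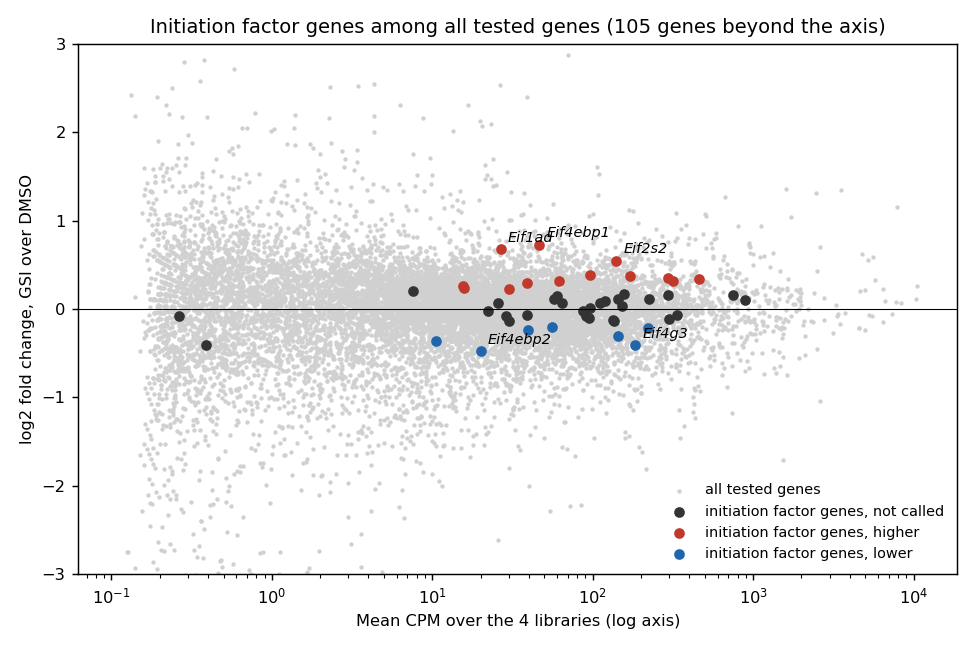
Mean CPM over the 4 libraries (log axis) against log2 fold change of GSI over DMSO, for all 13211 tested genes (grey) and 49 tested initiation factor genes without pseudogenes (red, higher; blue, lower; black, not called). The factor genes lie in a narrow band between -0.48 and 0.73, and 105 grey genes lie beyond the axis of 3.

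Among the eIF2 subunits, the β subunit gene Eif2s2 stood apart. Eif2s2 (chr2:154871410-154892935, minus strand, GRCm38) was at 123 and 105 CPM with DMSO and 175 and 158 CPM with GSI, and both GSI libraries were above both DMSO libraries. Its log2 fold change was 0.55 ± 0.08 (SE, n = 2 per group), a 1.46-fold rise with FDR = 1.49e-05 by edgeR's quasi-likelihood test. Eif2s1, which encodes the α subunit that the eIF2 kinases phosphorylate, was at 99.6 and 95.2 CPM with DMSO and 91.3 and 90.9 CPM with GSI (log2 fold change -0.097 ± 0.07, FDR = 0.285). Eif2s3x, the X-linked gene of the GTP-binding γ subunit, was at 31.8 and 31.03 CPM with DMSO and 28.8 and 28.3 CPM with GSI (log2 fold change -0.14 ± 0.077, FDR = 0.163). The γ and α subunit genes thus had fitted values slightly below 0 and did not pass the test. The Y-linked copy of Eif2s3x, Eif2s3y, had 0 counts in all 4 libraries, which allows up to 0.0697 CPM in the shallowest.

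The difference between subunits was also visible within each library, where normalization plays no part. For every 100 Eif2s1 counts there were 123 and 111 Eif2s2 counts with DMSO and 192 and 174 with GSI. For every 100 Eif2s3x counts there were 387 and 339.6 with DMSO and 608 and 559.6 with GSI. These pairs, and the other within-library pairs given below, were chosen after their values were seen. They are a description, since an exact permutation test of 2 libraries against 2 cannot give a 2-sided p below 0.333. The Eif2s2 transcripts share 10.2% of their stretches of 50 bases with other genes, and those of Eif2s3x 34.6%, so part of their reads may have been counted elsewhere.

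The other 2 tested genes with eIF2 names encode single proteins outside the eIF2 trimer. Eif2a, which encodes an alternative carrier of initiator tRNA and not the α subunit, was at 62.5 and 56.98 CPM with DMSO and 53.5 and 50.2 CPM with GSI. It fell by 1.15-fold (log2 fold change -0.20 ± 0.076, FDR = 0.0369), but was no longer called without DMSO replicate 1 (-0.14), without GSI replicate 2 (-0.16), by DESeq2 or with no filter on low counts. Eif2d, whose product acts in ribosome recycling and reinitiation, was at 30.1 and 29.00 CPM with DMSO and 29.2 and 26.9 CPM with GSI (FDR = 0.482).

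**Figure D2:**
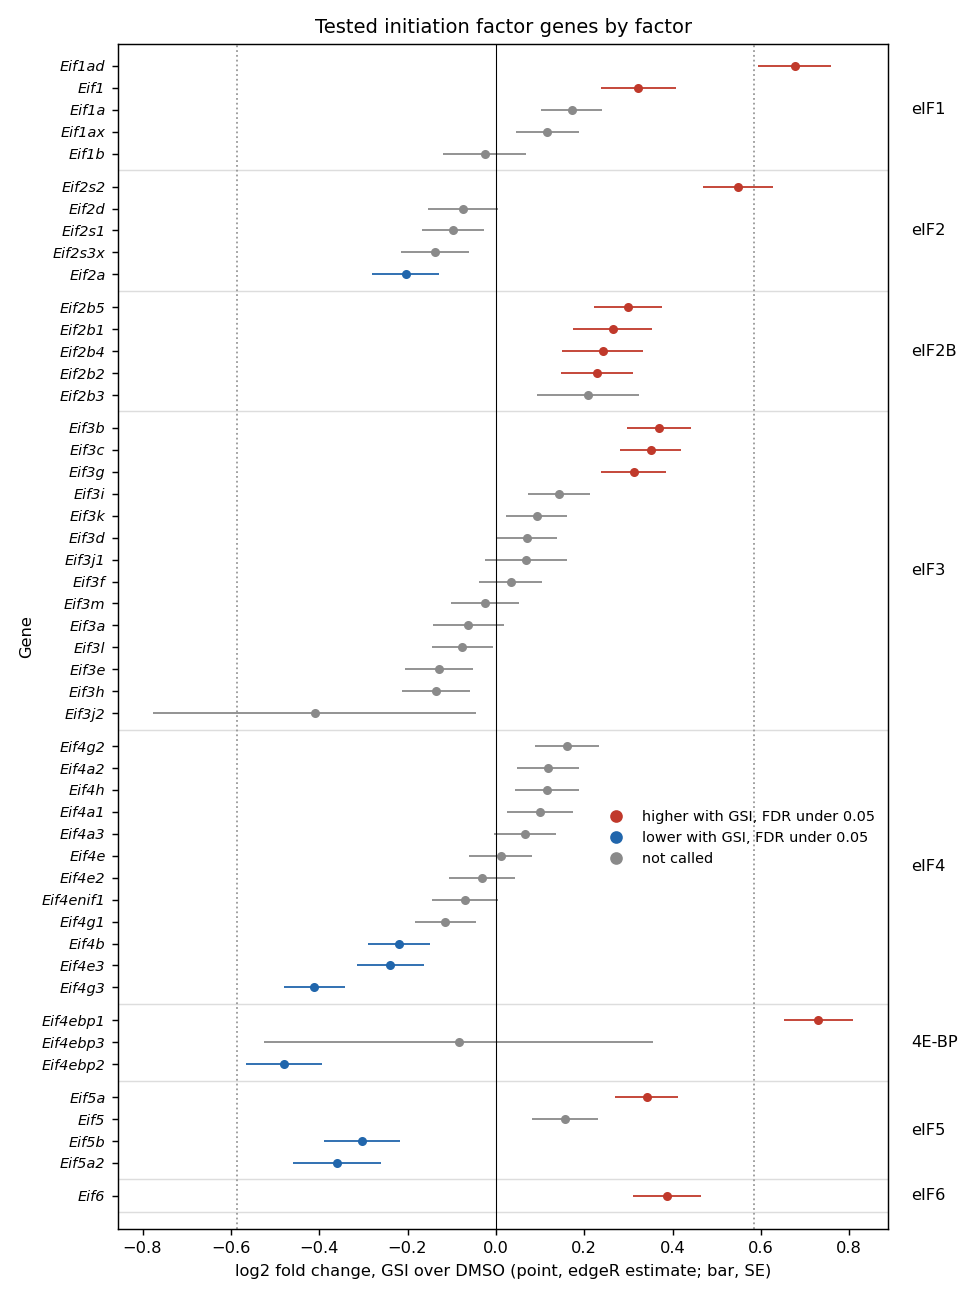
Log2 fold change of GSI over DMSO (point, edgeR estimate; bar, SE) for the 49 tested factor genes, grouped by factor and coloured by call (red, higher; blue, lower; grey, not called), with dotted lines at 1.5-fold. All 5 eIF2B genes sit right of 0 between 0.21 and 0.30, and the 3 called eIF4 genes lie to the left of 0.

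Of the 5 genes of eIF2B, the guanine nucleotide exchange factor of eIF2, 4 rose and none fell. All 5 had fitted values above 0, from 0.21 to 0.30 with a median of 0.24, and their groups did not overlap in any of the 5, as in 70.6% of all tested genes. The 4 that passed make up 80% of the 5, against 19.0% of all tested genes called higher. Eif2b5, the catalytic ε subunit gene, was at 33.2 and 36.4 CPM with DMSO and 42.3 and 43.5 CPM with GSI (log2 fold change 0.30 ± 0.077, FDR = 0.00376). Eif2b1, which encodes the regulatory α subunit, was at 13.99 and 14.3 CPM with DMSO and 17.6 and 16.4 CPM with GSI (0.26 ± 0.089, FDR = 0.0227). The regulatory β and δ subunits complete the part of eIF2B that senses phosphorylated eIF2. The β subunit gene Eif2b2 went from 25.95 and 29.3 to 31.8 and 33.04 CPM (0.23 ± 0.082, FDR = 0.0307). The δ subunit gene Eif2b4 went from 14.3 and 14.5 to 18.03 and 15.99 CPM (0.24 ± 0.092, FDR = 0.0405). Eif2b3, encoding the γ subunit that pairs with ε, was the lowest expressed and was at 7.30 and 6.70 CPM with DMSO and 8.69 and 7.45 CPM with GSI, which did not pass (FDR = 0.155).

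The calls of Eif2b1, Eif2b2 and Eif2b4 were close to the threshold, and that of Eif2b5 was further from it. Among the eIF2B genes, DESeq2 called only Eif2b5. Leaving out DMSO replicate 1 gave log2 fold changes of 0.24 for Eif2b5, 0.25 for Eif2b1, 0.23 for Eif2b4 and 0.14 for Eif2b2, and none of the 4 was then called. Eif2b1 and Eif2b4 were also not called without DMSO replicate 2 (0.28 and 0.25) or without GSI replicate 1 (0.21 and 0.15), nor was Eif2b2 without GSI replicate 2 (0.20). Exons of Snx17 overlap 204 bases of Eif2b4 on the other strand. Snx17 was at 65.6 and 67.2 CPM with DMSO and 74.2 and 80.6 CPM with GSI, and its part in the Eif2b4 value was not tested.

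In the eIF1 group, Eif1ad and Eif1 were higher with GSI. Eif1ad, which encodes a protein with an eIF1A-like domain and lies at chr19:5366741-5371526 on the plus strand, was at 19.5 and 21.6 CPM with DMSO and 33.1 and 32.7 CPM with GSI, a 1.60-fold rise (log2 fold change 0.68 ± 0.082, FDR = 1.39e-06). The groups were well separated, and leaving out any 1 library kept the value between 0.60 and 0.75 with the call. Exons of Banf1 overlap 428 bases of Eif1ad on the other strand. Banf1 itself was at 41.3 and 42.4 CPM with DMSO and 53.5 and 49.8 CPM with GSI, so the neighbour moved in the same direction, and its part in the Eif1ad value was not tested.

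Eif1, which encodes the factor that keeps scanning ribosomes accurate, was at 266 and 298 CPM with DMSO and 319.7 and 386 CPM with GSI (log2 fold change 0.32 ± 0.085, FDR = 0.00466). The spread between the GSI libraries was wide, and the call was lost without DMSO replicate 1 (0.24) and without GSI replicate 2 (0.18). The genes of eIF1A, which holds the scanning complex open together with eIF1, did not pass. Eif1ax was at 54.9 and 55.4 CPM with DMSO and 60.7 and 58.9 CPM with GSI (FDR = 0.202), and Eif1a, at a log2 fold change of 0.17 ± 0.068, lay just outside the threshold (FDR = 0.0502). Eif1b, a close relative of Eif1, had a fitted value of -0.025 ± 0.094 (FDR = 0.856).

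**Figure D3:**
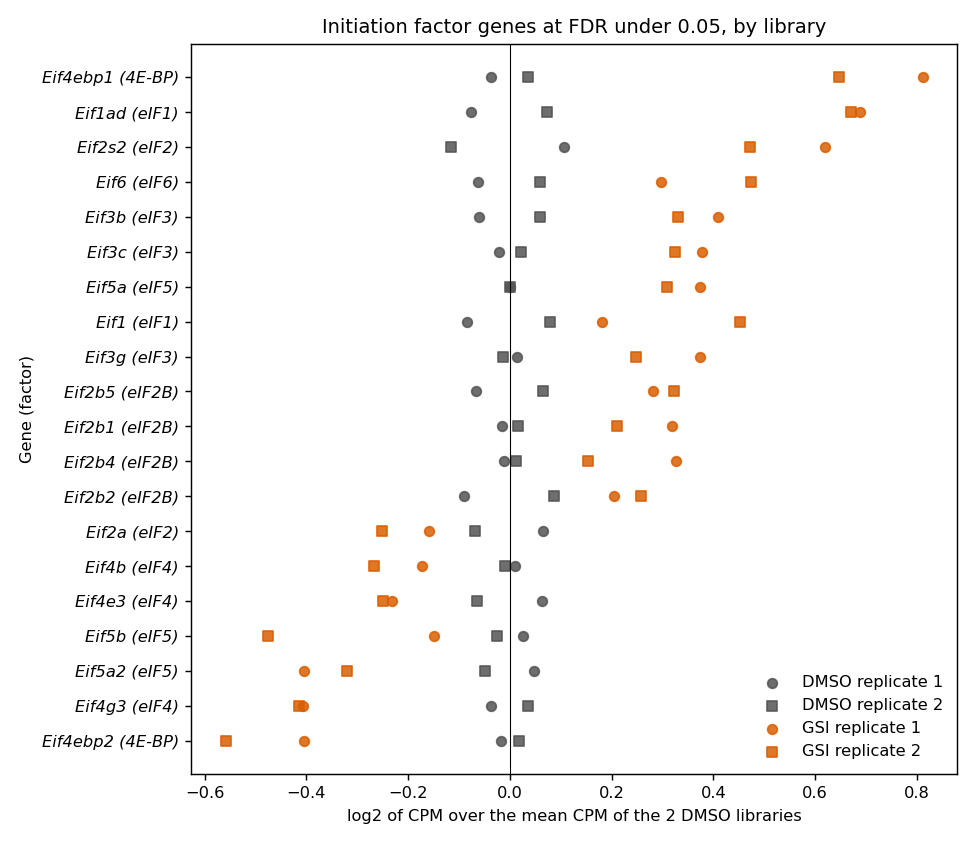
Log2 of each library's CPM over the mean CPM of the 2 DMSO libraries (x axis) for the 20 initiation factor genes called at FDR under 0.05 (y axis); grey, DMSO; orange, GSI; circles, replicate 1; squares, replicate 2. In every gene shown both GSI libraries lie on one side of both DMSO libraries, and Eif5b and Eif1 have the widest gaps between GSI libraries. The genes were picked by their FDR in these same libraries, which favours such separation. Groups did not overlap in 70.6% of all tested genes.

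eIF3 is the largest initiation factor and links the small subunit to eIF4G. Of its 14 genes, all tested, 3 rose (21.4%, against 19.0% of all tested genes) and none fell. Eif3b, a scaffold subunit, was at 142 and 154 CPM with DMSO and 197 and 186 CPM with GSI (log2 fold change 0.37 ± 0.072, FDR = 0.000327). Eif3c, a core subunit, was at 256 and 264 CPM with DMSO and 338 and 326 CPM with GSI (0.35 ± 0.069, FDR = 0.000404). Eif3g, whose product binds b and i, was at 55.2 and 54.1 CPM with DMSO and 70.8 and 64.9 CPM with GSI (0.31 ± 0.074, FDR = 0.00194). All 3 kept their calls when any 1 library was left out, with values between 0.25 and 0.43.

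The large core subunit gene Eif3a did not follow them. It was at 325 and 356 CPM with DMSO and 351 and 301 CPM with GSI, with overlapping groups and a fitted log2 fold change of -0.062 ± 0.08 (FDR = 0.565). Grouped by position in the complex, a grouping made after the values were seen, the genes of the octameric core (a, c, e, f, h, k, l and m) had a median of -0.043 over 8 genes. Those of the b, g and i module had a median of 0.31 over 3 genes, beside 0.015 over all tested genes. In this module, Eif3i was not called, at 0.14 ± 0.071 (FDR = 0.114). The remaining eIF3 genes that did not pass ranged from -0.41 in Eif3j2, measured at 17 and 28 counts with DMSO and 18 and 15 with GSI, to 0.092 in Eif3k. Eif3j2 shares 91.8% of its 50-base stretches with Eif3j1 and other genes, so their counts could not be separated with certainty.

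Of 12 tested eIF4 genes, 3 fell (25%, against 21.9% of all tested genes) and none rose. Eif4g3, which encodes the scaffold eIF4GII and lies at chr4:137993022-138208508 on the plus strand, was at 205 and 216 CPM with DMSO and 159 and 158 CPM with GSI, a 1.33-fold fall (log2 fold change -0.41 ± 0.069, FDR = 7.28e-05). Without any 1 library it stayed between -0.45 and -0.38 and was called each time. Eif4e3, which encodes an atypical cap-binding relative of eIF4E, was at 44.7 and 40.97 CPM with DMSO and 36.5 and 36.1 CPM with GSI (-0.24 ± 0.076, FDR = 0.0163). Eif4b, a cofactor of the helicase, was at 238 and 235 CPM with DMSO and 209.7 and 196 CPM with GSI (-0.22 ± 0.07, FDR = 0.0162). The last 2 calls were less firm: Eif4e3 was lost without DMSO replicate 1 (-0.18), and Eif4b was lost without DMSO replicate 1 (-0.21), DMSO replicate 2 (-0.23) or GSI replicate 2 (-0.17).

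The core of eIF4F did not pass the test. The cap-binding gene Eif4e was at 91.8 and 100.1 CPM with DMSO and 95.1 and 98.3 CPM with GSI (log2 fold change 0.011 ± 0.072, FDR = 0.920). The helicase gene Eif4a1 was at 814 and 895 CPM with DMSO and 909 and 923 CPM with GSI (0.099 ± 0.075, FDR = 0.307). Eif4g1, the main scaffold, was at 304 and 314 CPM with DMSO and 283 and 288 CPM with GSI (-0.11 ± 0.069, FDR = 0.194). Between the scaffolds, there were 67.6 and 68.8 Eif4g3 counts per 100 Eif4g1 counts with DMSO and 56.2 and 54.97 with GSI. This difference was not tested. Eif4g2, which encodes the scaffold relative DAP5 that lacks the eIF4E site, went from 238 and 223 to 273 and 284 per 100 Eif4g1 counts, although its own change did not pass (0.16 ± 0.073, FDR = 0.0838). The other tested eIF4 genes, Eif4a2, Eif4a3, Eif4e2, Eif4enif1 and Eif4h, lay between -0.07 and 0.12.

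The clearest contrast was between the 4E-BPs, small proteins that hold eIF4E away from eIF4G until mTOR phosphorylates them. Eif4ebp1 (chr8:27260329-27276674, plus strand) was at 33.9 and 35.6 CPM with DMSO and 61.01 and 54.5 CPM with GSI, a 1.66-fold rise and the largest change among the tested members (log2 fold change 0.73 ± 0.078, FDR = 2.69e-07). Eif4ebp2 (chr10:61428491-61452661, minus strand) was at 23.05 and 23.6 CPM with DMSO and 17.6 and 15.9 CPM with GSI, a 1.39-fold fall and the largest decrease (-0.48 ± 0.087, FDR = 0.000160). Groups were apart in both genes, and both calls held without any 1 library, at 0.65 to 0.81 for Eif4ebp1 and -0.56 to -0.40 for Eif4ebp2. Within a library there were 147 and 151 Eif4ebp1 counts per 100 Eif4ebp2 counts with DMSO and 346 and 344 with GSI. Relative to their target, Eif4ebp1 counts per 100 Eif4e counts were 36.9 and 35.6 with DMSO and 64.2 and 55.4 with GSI. Eif4ebp3 had only 13 and 14 counts with DMSO and 10 and 15 with GSI, and its fitted value of -0.084 ± 0.44 has an error too wide for a direction.

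**Figure D4:**
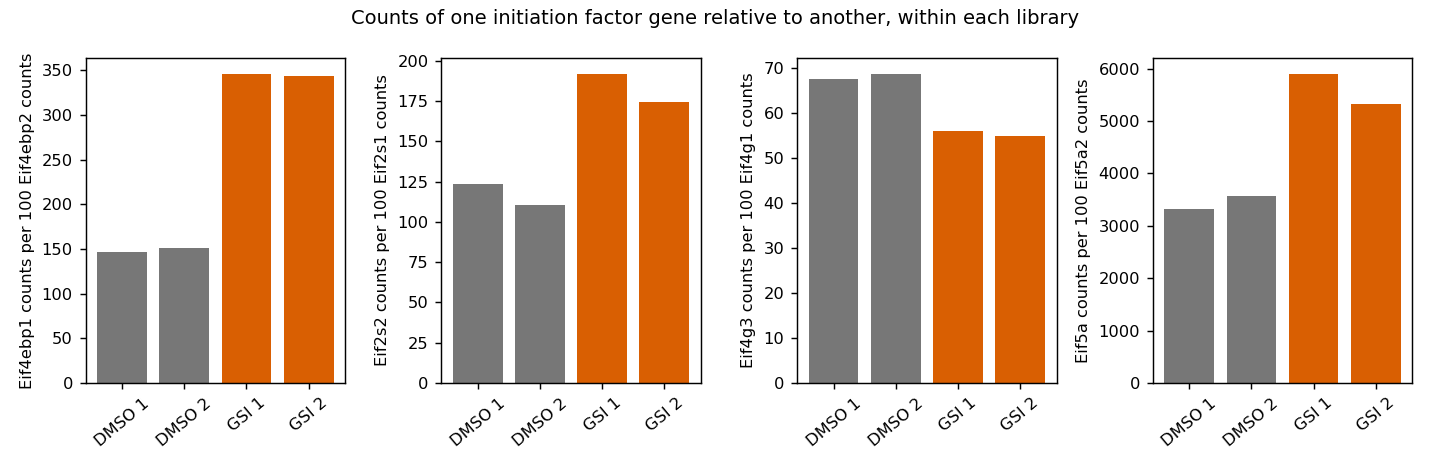
Counts of one gene per 100 counts of another within each library (bars from 0; grey, DMSO; orange, GSI), for Eif4ebp1 over Eif4ebp2, Eif2s2 over Eif2s1, Eif4g3 over Eif4g1 and Eif5a over Eif5a2. In all 4 pairs both GSI libraries lie on one side of both DMSO libraries, with Eif4ebp1 at 147 and 151 with DMSO and 346 and 344 with GSI. The pairs were chosen after their values were seen, so their separation is a description only.

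The eIF5 names cover 3 different activities. Eif5, whose product triggers GTP hydrolysis by eIF2, was at 263 and 291 CPM with DMSO and 296 and 322 CPM with GSI and did not pass (log2 fold change 0.16 ± 0.075, FDR = 0.100). Eif5b, the GTPase of subunit joining, was at 162 and 156 CPM with DMSO and 143 and 114 CPM with GSI (-0.30 ± 0.086, FDR = 0.00763). Without GSI replicate 2, the lowest library, the log2 fold change of Eif5b was -0.15 and was not called. Rev1 exons overlap 1643 bases of Eif5b on the other strand. Rev1 was at 14.96 and 14.8 CPM with DMSO and 14.2 and 15.99 CPM with GSI, and its part in the Eif5b value was not tested.

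eIF5A helps ribosomes form difficult peptide bonds and carries the amino acid hypusine, and it has 2 genes whose promoter stretches are shown above. Eif5a (chr11:69916714-69921958, minus strand) was at 407 and 407 CPM with DMSO and 528 and 504 CPM with GSI (log2 fold change 0.34 ± 0.071, FDR = 0.000633), and its 2 DMSO libraries were nearly equal. Eif5a2 (chr3:28781276-28798846, plus strand) was at 12.2 and 11.4 CPM with DMSO and 8.93 and 9.47 CPM with GSI (-0.36 ± 0.10, FDR = 0.00669), with a call that was lost without DMSO replicate 1 (-0.31). For every 100 Eif5a2 counts there were 3329.7 and 3563 Eif5a counts with DMSO and 5905 and 5322 with GSI, so the minor gene became a smaller part of the pair. Eif6, which encodes a factor that keeps large subunits from joining too early, was at 79.8 and 86.8 CPM with DMSO and 102 and 116 CPM with GSI (0.39 ± 0.077, FDR = 0.000412), and its call held when any 1 library was left out. Exons of Gm16098 overlap 138 bases of Eif6 on the other strand. Gm16098 was at or below 0.526 CPM in every library, and its part in the Eif6 value was not tested.

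**Figure D5:**
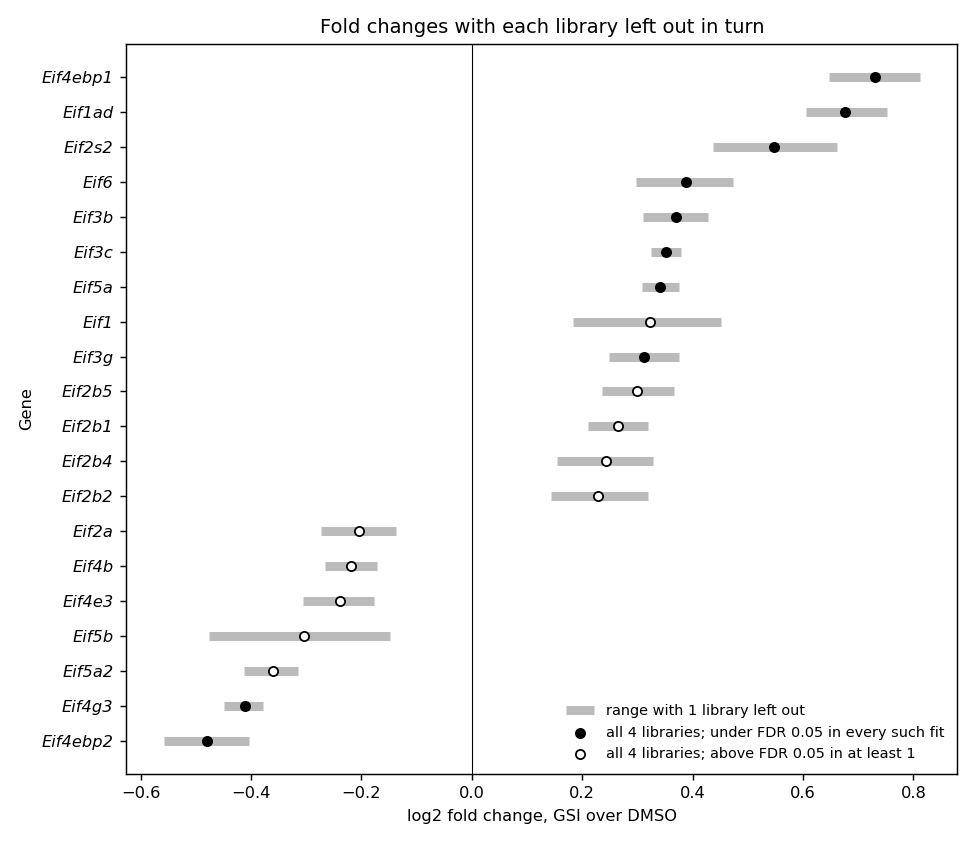
Log2 fold change of GSI over DMSO with all 4 libraries (points) and its range when each library was left out in turn (grey bars) for the 20 called genes (y axis); filled points kept an FDR under 0.05 in every such fit. No bar crosses 0, 10 points are filled, and the widest bars are those of Eif5b and Eif1.

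Across the 14 fits, each of which was applied to the genes it could test, 10 members were called every time in the same direction. These were Eif4ebp1, Eif1ad, Eif2s2, Eif6, Eif3b, Eif3c, Eif5a and Eif3g, which rose, and Eif4g3 and Eif4ebp2, which fell. Eif1ad and Eif6 were not covered by the fit on genes without exons on the other strand. How many of all tested genes were called in every fit was not counted, so these members are not set against a background. In the main fit 40.8% of all tested genes were called. In fits that left 1 library in a group, that library was assumed to vary like the others.

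To compare levels between genes, CPM was divided by the length in kb of the longest coding transcript. On this scale of CPM per kb, Eif4a1 had the highest level at 459 and 505 with DMSO and 512 and 520.1 with GSI. Eif5a followed at 283 and 284 with DMSO and 367 and 351 with GSI, then Eif1 at 201 and 225 with DMSO and 242 and 292 with GSI. The libraries of Eif4a1 lay above all those of Eif5a, those of Eif5a lay above those of Eif1 within each group, and the order of the 3 was the same when the length of all annotated exons was used. Eif4a1 shares 28.4% of its 50-base stretches with other genes, chiefly the pseudogene Eif4a-ps4, so its level is uncertain to that extent.

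Levels differed widely within a complex. The eIF3 genes ran from 0.164 CPM per kb in Eif3j2 and 4.73 in Eif3j1 to 130.4 in Eif3k, as means over the 4 libraries. Among eIF2 subunit genes the means were 55.3 for Eif2s2, 27.7 for Eif2s1 and 8.22 for Eif2s3x, and among eIF2B genes they ran from 2.01 in Eif2b3 to 18.7 in Eif2b2. eIF2B genes were thus expressed below Eif2s1 and Eif2s2. Eif4g1 and Eif4a2, with means of 52.7 and 52.9, are neighbours in this order, but by the length of all annotated exons they ranked 12 and 20. The order of several genes depended on the length used, and among the eIF3 genes Eif3k ranked 4 and Eif3e 7 by the longest coding transcript but 10 and 25 by all exons.

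Of the 8 members that are pseudogenes or Eif2c5, 3 were tested and none was called, against 40.8% of all tested genes. Eif4a-ps4 had 372 and 539 counts with DMSO and 447 and 492 with GSI, and 95.7% of its stretches are shared with other genes, so its counts and those of Eif4a1 could not be separated with certainty. The other 7 had at most 21 counts in any library.

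Genes that act with the initiation factors were examined with a list of 39 genes, all tested, of which 6 were lower and 4 were higher, or 5 lower and 2 higher without DMSO replicate 2. The median log2 fold change of the list was -0.042, beside 0.015 over all tested genes, and 15.4% were lower against 21.9% and 10.3% higher against 19.0%. None of the 4 eIF2 kinase genes (Eif2ak1 to Eif2ak4) passed, against 40.8% of all tested genes, with fitted values from -0.19 to -0.076. None of the 3 genes of the eIF2α phosphatase passed either, against the same 40.8%. Among them, the inducible subunit gene Ppp1r15a was at 736 and 728 CPM with DMSO and 831 and 740.1 CPM with GSI (FDR = 0.305).

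Of the 9 genes that control cap binding, 3 fell (33.3%, against 21.9% of all tested genes) and none rose. Pdcd4, which encodes an inhibitor of the eIF4A helicase, was at 14.2 and 12.2 CPM with DMSO and 8.93 and 7.81 CPM with GSI (log2 fold change -0.65 ± 0.11, FDR = 6.71e-05). Cyfip1, whose product can hold eIF4E in repressed mRNAs, was at 422 and 421 CPM with DMSO and 292 and 307 CPM with GSI (-0.49 ± 0.07, FDR = 1.05e-05). The other was Mtor, the kinase gene upstream of the 4E-BPs, at 39.3 and 37.7 CPM with DMSO and 31.7 and 33.1 CPM with GSI (-0.25 ± 0.076, FDR = 0.0132), and it was not called without DMSO replicate 1 (-0.22) or GSI replicate 1 (-0.22).

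Both genes that make hypusine on eIF5A rose, against 19.0% of all tested genes. Dohh was at 16.7 and 20.5 CPM with DMSO and 24.4 and 25.6 CPM with GSI (0.42 ± 0.094, FDR = 0.00125). Dhps was at 16.2 and 16.1 CPM with DMSO and 18.6 and 21.3 CPM with GSI (0.30 ± 0.09, FDR = 0.0111), but was not called without DMSO replicate 2 (0.29) or GSI replicate 2 (0.20). Among scanning and recycling genes, the reinitiation factor gene Denr rose from 111 and 115 to 166 and 142 CPM (0.44 ± 0.078, FDR = 0.000120) and the helicase gene Ddx3x fell from 485 and 464 to 355 and 369.8 CPM (-0.39 ± 0.071, FDR = 0.000181). The poly(A)-binding protein gene Pabpc1, which bridges the mRNA tail to eIF4G, fell by 1.203-fold (FDR = 0.00720), a call lost without DMSO replicate 1 (-0.24) and without GSI replicate 2 (-0.21). Of the elongation genes, Eef2 fell by 1.16-fold (FDR = 0.0236) and Eef1d rose by 1.14-fold (FDR = 0.0384), and each lost its call without at least 2 of the 4 libraries, taken 1 at a time. None of the 2 termination and 2 mitochondrial initiation genes passed, against 40.8% of all tested genes.

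Some other values moved with the treatment. Of the 7 macrophage marker genes, Csf1r, Itgam, Adgre1, Lyz2 and Fcgr1 were lower and Mertk was higher with GSI. Cd68 did not pass (log2 fold change 0.18, FDR = 0.0616). Over all tested genes 21.9% were lower and 19.0% higher. The part of these markers in the initiation factor values was not tested. Exons of another gene lay on the other strand for 11 tested members, 5 of which were called (45.5%), and 15 of the 41 others were called (36.6%), beside 40.8% of all tested genes. Besides the genes noted above, stretches of 50 bases shared with other genes made up 19.2% of Eif1, 12.3% of Eif4e3 and 7.25% of Eif3c, so part of their reads may have been counted elsewhere or not at all.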

How the data were processed

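RNA was measured in 4 libraries, 2 per group. Per the study's methods, the authors prepared libraries with a stranded poly(A) kit, sequenced on an Illumina NextSeq system, trimmed with Trimmomatic, aligned with STAR (2.5.0a per the processing notes) and counted with HTSeq on mm10. The notes also list mm9. The HTSeq mode and strand setting are not given in the sources used here, so reads of genes on opposite strands may not be separated. The deposited values are raw counts per gene, with Ensembl IDs, in 16 columns, all used. The 4 columns of a replicate were summed, since the labels do not define them.

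Counts were tested in R 4.3.3 with edgeR 4.0.16 (filterByExpr, TMM, glmQLFit, glmQLFTest, group as the only factor), with Benjamini-Hochberg adjustment over 13211 genes and an FDR under 0.05. The SE is the log2 fold change divided by the square root of F. The code was tested on simulated data. Alternatives were RLE scaling, no scaling, other filters, a likelihood ratio test, DESeq2 1.42.0, a replicate block, 16 separate columns, leaving out each library, genes free of exons on the other strand and a 1.25-fold limit. Positions come from GENCODE M21 (GRCm38), in which all 59 members were found.

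Members and lists were chosen with earlier results of these data known. In each factor group the genes named were up to 3 called genes with the largest changes, plus core subunit genes whatever their change, and up to 2 called genes of each related list. Other genes, Mtor and Ppp1r15a among them, were named outside this rule after their values were seen, mostly to list all genes of a small group of calls or of a complex, or to give an extreme value.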

Additional observations from a re-analysis of the deposited data

How the results depend on the processing

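The counts of 13 higher and 7 lower initiation factor genes changed by no more than 1.5 times under RLE scaling, no scaling, either filter on low counts, the likelihood ratio test, DESeq2 (10 and 6) and restriction to genes without exons on the other strand (10 and 5). Treating the 16 columns as separate samples gave 24 higher and 13 lower members (77.1% called, against 67.8% of all genes in that fit), and 11 higher and 13 lower related genes. Those columns are not independent. Members called at 1.5-fold or more numbered 1 among genes without exons on the other strand, since Eif1ad was not covered, and 11 at the lower fold limit (0.32 on the log2 scale). Leaving out 1 library at a time gave 8 to 12 higher and 3 to 8 lower members, with both lowest counts without DMSO replicate 1, and 4 lower members without GSI replicate 2. It gave 2 to 4 higher and 4 to 5 lower related genes, with the lowest higher count without DMSO replicate 2, and 2 to 3 members past 1.5-fold. Of the called genes named by the rule for named genes, none changed direction in the fits that covered it. Genes named outside that rule, such as Mtor and the macrophage markers, were not followed through every alternative. The cause of these differences was not tested.

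With the replicate number as a block (replicate block), 16 members were higher and 7 lower, 6 related genes were higher and 7 lower, and the same 20 members were called plus Eif4g2, Eif5 and Eif1a. The deviations of same-numbered libraries from their group means correlated at 0.155, a single value from 2 pairs, and the labels do not say what a number marks, so whether the numbers pair the libraries is not known. Over all genes the block raised the calls from 5392 to 6444 (48.8%). The members' median log2 fold change of 0.069 moved by more than the spread between replicates (0.013) only when a library was left out, where it ranged from 0.050 without DMSO replicate 1 to 0.087 without GSI replicate 1. With 2 libraries per group, changes near the size of a gene's SE could not be detected.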
